A study of Homo sapiens with 6 samples.

Results

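The RGS genes encode regulators of G-protein signaling, and 10 of them were examined by name in RNA-seq of lung cancer cells treated with norepinephrine (NE). They were RGS2, RGS3, RGS4 and RGS16 of the R4 subfamily, RGS17, RGS19 and RGS20 of the RZ subfamily, and RGS10, RGS12 and RGS14 of the R12 subfamily. All 10 had 1 row each among the 26025 genes of the deposited table. The members were taken by gene name, and the names were chosen with earlier results of these data known.

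The study asked how NE, a stress neurotransmitter, acts on lung cancer cells. The cells were NCI-H1299, a long-established line from a human non-small cell lung carcinoma. The 3 Ctrl libraries came from cells given vehicle and the 3 NE libraries from cells given 10 µM NE for 48 h. The labels give no other agent and no engineered allele for any of the 6 samples. In all of them the cells were first starved in DMEM for 8 to 12 h and then kept in medium with reduced serum. The labels name the vehicle as DMSO in one field and as PBS in another. They do not say whether the replicates were separate cultures, so the p-values measure only the spread between these libraries, which may be technical. A single line does not represent lung tumors in general, and in bulk RNA fewer cells of a kind and less RNA per cell cannot be told apart.

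Heterotrimeric G proteins are switched on when an activated receptor makes the alpha subunit exchange GDP for GTP. RGS proteins bind the active alpha subunit through their RGS domain and speed up GTP hydrolysis, which ends the signal of both the alpha subunit and the released beta-gamma dimer. Most of them act on the Gi/o family, and several also act on Gq. NE signals through alpha-1 receptors coupled to Gq, alpha-2 receptors coupled to Gi and beta receptors coupled to Gs, the last of which raises cAMP and activates protein kinase A and the transcription factor CREB.

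CREB binds the cAMP response element (CRE), TGACGTCA, which contains the core motif TGACG and its reverse complement CGTCA. RefSeq promoter windows of 250 bases before each annotated start (GRCh38.p14) were found for 9 of the 10 members, 22 windows in all. The whole CRE was in 0 of the 22 windows, compared with 1.65% of 35116 windows genome-wide. The core motif on either strand was in 5 windows of 4 members, RGS2, RGS3, RGS4 and RGS12, compared with 21.2% of all windows and 24.9% of 27305 genes. The 2 RGS4 windows with the motif overlap and share the same site. The comparison by gene is uneven, since 22 windows belong to 9 members and 35116 windows to 27305 genes. A match here is a match of letters, not evidence of binding. The windows of 3 members with different behavior in the data follow, 5′ to 3′ on the strand of the gene in lower case, with any core motif in capitals. RGS2 is shown as the member that rose, RGS10 as the most abundant member, and RGS14 as the member whose call was lost when any 1 of 5 libraries was left out. RGS2 lies at chr1:192808789-192809038 on the plus strand, RGS10 at chr10:119542720-119542969 on the minus strand and RGS14 at chr5:177357674-177357923 on the plus strand.
RGS2: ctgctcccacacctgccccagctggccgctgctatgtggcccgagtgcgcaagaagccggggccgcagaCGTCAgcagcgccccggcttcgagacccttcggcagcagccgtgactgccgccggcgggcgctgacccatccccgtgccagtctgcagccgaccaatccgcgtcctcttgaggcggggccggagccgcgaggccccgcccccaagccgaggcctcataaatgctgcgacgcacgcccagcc
RGS10: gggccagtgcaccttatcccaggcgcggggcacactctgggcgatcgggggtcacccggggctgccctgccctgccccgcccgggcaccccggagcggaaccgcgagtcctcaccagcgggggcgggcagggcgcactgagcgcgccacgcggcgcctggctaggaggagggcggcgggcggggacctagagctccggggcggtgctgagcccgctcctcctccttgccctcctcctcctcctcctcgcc
RGS14: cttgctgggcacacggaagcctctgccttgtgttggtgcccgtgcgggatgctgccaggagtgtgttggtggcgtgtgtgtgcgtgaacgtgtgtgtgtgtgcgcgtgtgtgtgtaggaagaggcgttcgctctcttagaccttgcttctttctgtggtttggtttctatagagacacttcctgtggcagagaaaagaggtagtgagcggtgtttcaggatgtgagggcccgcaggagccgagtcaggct
The RGS2 window held CGTCA at positions -181 to -177 from the start, and the windows of RGS10 and RGS14 shown here held no core motif. RGS3, which was lower with NE, held the core motif in 1 of its 5 windows, not shown here. The motif was thus not limited to the member that rose.

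The libraries had between 16852751 and 17979206 reads on genes. Values are normalized counts, meaning the reads of a gene divided by 1 size factor per library. Ctrl replicate 3 stood apart from the other Ctrl libraries before any test. It had 7305 genes listed at 0, against 4829 and 4833 in Ctrl replicates 1 and 2 and between 3954 and 4416 in the NE libraries. The chi-square of its counts per degree of freedom was at least 45.8 against either of the other Ctrl libraries, and 2.88 between those. Results that rest on this library are given with and without it. Fold changes were also correlated with the GC content of the exons (Spearman's correlation -0.64 across 14955 genes, which are not independent), so values after a GC correction are given beside the main ones. The line's carcinoma markers KRT8, KRT18 and VIM were abundant, whereas EPCAM and CDH1 were at 0 to 4.84 normalized counts. Markers of immune cells, endothelium and fibroblasts were near 0, and the 9 of 11 that were listed summed to 81.7 to 86.1 normalized counts in Ctrl and 46.5 to 83.0 in NE.

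NE treatment left 1 RGS gene higher and 5 lower. RGS2 rose about 3.5-fold, and RGS3, RGS10, RGS14, RGS19 and RGS20 fell to between 0.40 and 0.58 of their Ctrl level. RGS4, RGS12 and RGS17 did not pass the test, and RGS16 was too low to be tested. These calls came from limma on log2(normalized count + 1) for the 15013 genes whose mean was 10 or more, at a Benjamini-Hochberg adjusted p under 0.05. Of all tested genes, 24.6% were higher and 25.5% were lower by this rule. With a log2 fold change of at least 1 as well, 1 member (RGS2) was upregulated and 2 (RGS3 and RGS14) were downregulated, against 7.47% and 6.55% of all tested genes. The median log2 fold change of the 9 tested members was -0.79, and that of all tested genes was 0.01. The 3 NE libraries all exceeded the 3 Ctrl libraries for 1 member (RGS2), which held for 29.7% of tested genes, and all lay below them for 5 members (RGS3, RGS10, RGS12, RGS19 and RGS20), which held for 28.9%.

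**Figure D1:**
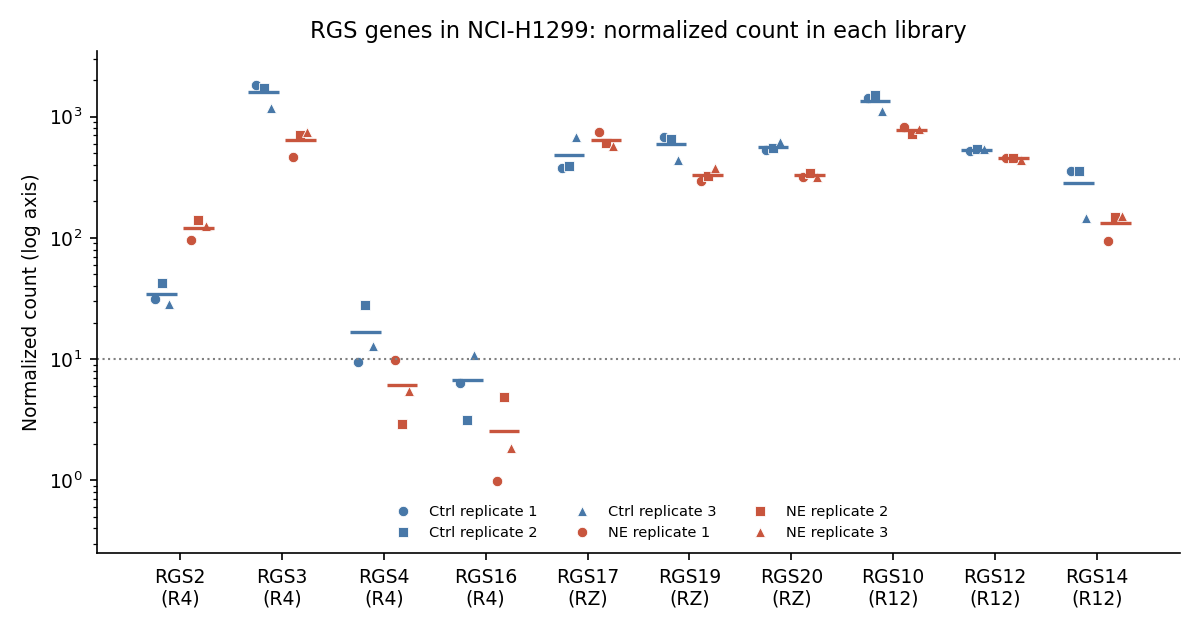
Normalized count on a log axis for the 10 RGS genes, grouped by subfamily, with 1 symbol per library (Ctrl in blue, NE in red, shape by replicate) and a horizontal bar at each group's mean. The dotted line is the minimum mean of 10. RGS2 is the only one of the 10 genes with all NE symbols above all Ctrl symbols, and Ctrl replicate 3 of RGS14 lies among the NE symbols.

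Within the R4 subfamily, whose members consist of little more than an RGS domain apart from the long forms of RGS3, the genes did not move together. RGS2 is known for its preference for Gq and as a gene that cAMP induces in several cell types. It had 31.4, 42.5 and 28.4 normalized counts in Ctrl replicates 1, 2 and 3, and 96.8, 140 and 125 in the NE replicates. The lowest NE library lay well above the highest Ctrl library. The means were 34.1 ± 7.43 and 121 ± 22.1 (SD, n = 3), a log2 fold change of 1.80 (standard error 0.249, 95% confidence interval 1.24 to 2.36, limma adjusted p = 0.000552 with Benjamini-Hochberg adjustment). It was 1.68 without Ctrl replicate 3 and 1.28 after GC correction (limma adjusted p = 0.00572). RGS2 (ENSG00000116741) lies on chromosome 1 at 192809039 to 192812275 (hg38, GENCODE v44), and its exons have a GC content of 40.9%.

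RGS3 acts on both Gi and Gq and was the most read of the R4 genes. Its normalized counts were 1837, 1740 and 1190 in Ctrl and 464, 705 and 750 in NE. No NE library reached a Ctrl library, although Ctrl replicate 3 was the lowest of its group. Mean counts were 1589 ± 349 in Ctrl and 640 ± 154 in NE (SD, n = 3). The log2 fold change was -1.32 (standard error 0.216, 95% confidence interval -1.80 to -0.83, limma adjusted p = 0.0012). Leaving out Ctrl replicate 3 moved it to -1.51, and GC correction moved it to -0.86 (limma adjusted p = 0.00292), below the 2-fold criterion but still past the test. RGS3 (ENSG00000138835) spans chromosome 9, 113444731 to 113597743, with several promoters and long and short forms that a gene total cannot separate.

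RGS4 and RGS16, both short-lived regulators of Gi and Gq that the arginine/N-degron pathway degrades, were close to the limit of detection. RGS4 (ENSG00000117152, chromosome 1, 163068775 to 163076802) had 9.42, 28.0 and 12.7 normalized counts in Ctrl and 9.88, 2.91 and 5.48 in NE. The groups overlapped, since NE replicate 1 exceeded Ctrl replicate 1. Its log2 fold change was -1.30 with a 95% confidence interval of -2.70 to 0.09 (limma adjusted p = 0.107), and after GC correction it was -1.85 (limma adjusted p = 0.0441). RGS16 (ENSG00000143333, chromosome 1, 182598623 to 182604389) had 6, 3 and 11 reads in the Ctrl libraries and 1, 5 and 2 in the NE libraries. Summed over each group, 20 reads (95% Poisson interval 12.2 to 30.9) stood against 8 (3.45 to 15.8). These intervals cover counting error only. In a fit with no filter on low values the log2 fold change of RGS16 was -1.14 (limma adjusted p = 0.289), which did not pass.

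The RZ subfamily is named for Gz, the Gi-family alpha subunit on which RGS17 and RGS20 act best, and its members carry a cysteine-rich string before the RGS domain. RGS20 had 530, 553 and 612 normalized counts in Ctrl and 318, 344 and 320 in NE. The groups were well apart, and here Ctrl replicate 3 was the highest Ctrl library. The means were 565 ± 42.6 and 327 ± 14.4 (SD, n = 3) and the log2 fold change was -0.78 (standard error 0.122, limma adjusted p = 0.000918). It was -0.72 without Ctrl replicate 3 and -0.57 after GC correction (limma adjusted p = 0.00912). RGS20 (ENSG00000147509) is on chromosome 8, 53851795 to 53959303.

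RGS19, first known as GAIP, a Gi-interacting protein, had 684, 650 and 436 normalized counts in Ctrl and 295, 323 and 380 in NE. The gap between the groups lay between Ctrl replicate 3 and NE replicate 3 and was narrow. From means of 590 ± 134 and 333 ± 43.2 (SD, n = 3), the log2 fold change was -0.80 (standard error 0.189, limma adjusted p = 0.00661). The exons of RGS19 (ENSG00000171700, chromosome 20, 64073181 to 64079988) have the highest GC content of the members, 65.1%. After GC correction its log2 fold change was -0.16 (limma adjusted p = 0.329) and the call was lost. Without Ctrl replicate 3 it was -1.01 (limma adjusted p = 1.33e-05), past the 2-fold criterion, which made RGS19 a downregulated member beside RGS3 and RGS14.

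RGS17 had a higher mean in NE, but not beyond the spread between libraries. It had 375, 394 and 677 normalized counts in Ctrl and 745, 603 and 577 in NE. Ctrl replicate 3 lay above both NE replicates 2 and 3. The log2 fold change was 0.46 with a 95% confidence interval of -0.04 to 0.96 (limma adjusted p = 0.114). Without Ctrl replicate 3 it was 0.73 (limma adjusted p = 0.000181), whereas after GC correction it was -0.32 (limma adjusted p = 0.086). With GC and length correction it was -0.38 and passed the test as lower (limma adjusted p = 0.0269). RGS17 (ENSG00000091844, chromosome 6, 153004459 to 153131282) has the lowest exon GC content of the members, 33.2%, and its direction depended on the correction.

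In the R12 subfamily, RGS12 and RGS14 are scaffolds that bind Ras-family proteins and hold inactive Gi through a GoLoco motif, while RGS10 is a small protein with an RGS domain and little else. RGS10 had 1417, 1504 and 1116 normalized counts in Ctrl and 817, 722 and 787 in NE. All NE libraries lay below all Ctrl libraries. The means of 1346 ± 203 and 775 ± 48.9 (SD, n = 3) gave a log2 fold change of -0.79 (standard error 0.135, limma adjusted p = 0.00149). It was -0.72 after GC correction (limma adjusted p = 0.000929) and -0.91 without Ctrl replicate 3. RGS10 (ENSG00000148908) lies on chromosome 10, 119499817 to 119542719.

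RGS12 (ENSG00000159788, chromosome 4, 3293021 to 3439913) had the least variable counts of the members, 517, 542 and 539 in Ctrl and 459, 453 and 443 in NE. The groups did not overlap, but the difference was small. An exact permutation test, two-sided, gave p = 0.1, the smallest that 3 against 3 libraries allow. The same test gave the same value for RGS2, RGS3, RGS10, RGS19 and RGS20. The log2 fold change was -0.24 (standard error 0.111, limma adjusted p = 0.103), and after GC correction it was 0.20 (limma adjusted p = 0.253), the opposite direction.

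RGS14 (ENSG00000169220, chromosome 5, 177357924 to 177372596) passed the test by a narrow margin. Its normalized counts were 359, 355 and 145 in Ctrl and 93.9, 149 and 152 in NE. Ctrl replicate 3 thus sat inside the NE range, and the groups overlapped. The means were 286 ± 122 and 132 ± 32.7 (SD, n = 3) and the log2 fold change was -1.03 (standard error 0.348, limma adjusted p = 0.0332). Without Ctrl replicate 3 it was -1.47 (limma adjusted p = 2.7e-05). When any 1 of the other 5 libraries was left out, the adjusted p was between 0.056 and 0.139 and RGS14 no longer passed, which left RGS3 as the 1 downregulated member. After GC correction RGS14 was at -0.41 (limma adjusted p = 0.24), with an exon GC content of 63.6%.

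**Figure D2:**
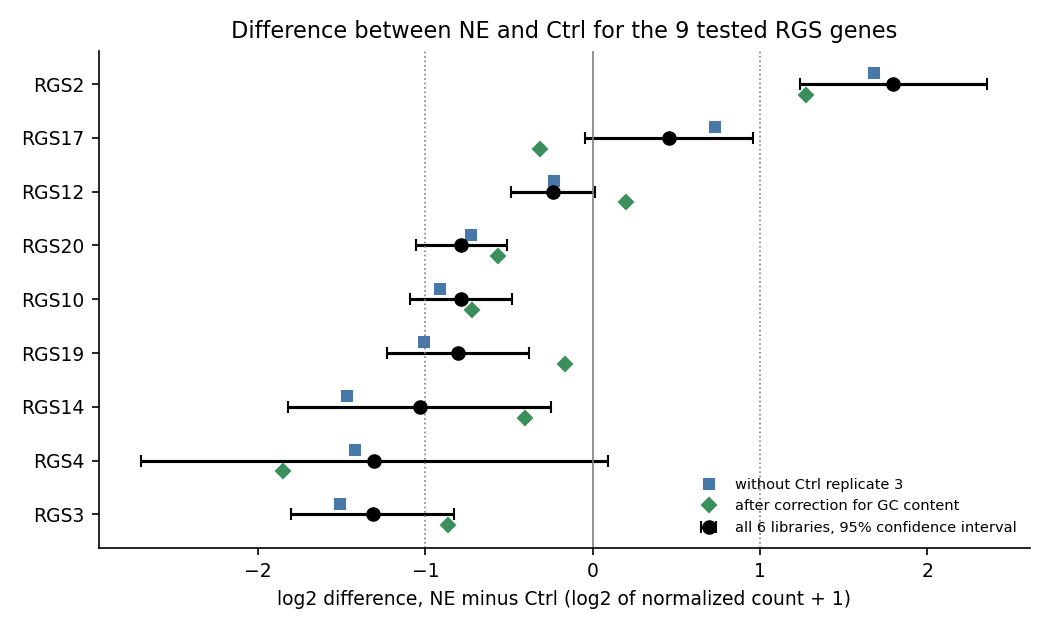
Difference between NE and Ctrl on the log2 scale for the 9 tested RGS genes, with black points and 95% confidence intervals from all 6 libraries, blue squares without Ctrl replicate 3 and green diamonds after GC correction. Dotted lines mark a 2-fold difference. RGS12 and RGS17 cross 0 after GC correction, while RGS2, RGS3, RGS4, RGS10, RGS14, RGS19 and RGS20 stay on their side of 0 in all 3 versions.

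Across the members, the GC correction left 1 higher (RGS2) and 4 lower (RGS3, RGS4, RGS10 and RGS20), against 13% and 19% of all genes tested that way. Without Ctrl replicate 3, 2 members were higher (RGS2 and RGS17) and 5 were lower, against 31.8% and 32.6% of all tested genes. RGS2, RGS3, RGS10 and RGS20 were therefore past the test under both changes, and the other calls depended on one or both.

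For most members Ctrl replicate 3 deviated from the other Ctrl libraries toward the NE libraries. Its log2 value minus the mean of Ctrl replicates 1 and 2 was -1.29 for RGS14 and 0.82 for RGS17. These were close to the NE difference from the same baseline, -1.47 and 0.73. RGS3 (-0.59), RGS19 (-0.61), RGS10 (-0.39) and RGS4 (-0.34) also moved toward NE, but by less. RGS2 (-0.35), RGS20 (0.18) and RGS12 (0.03) moved the opposite way. The count, 6 of 9 members (66.7%), was near that over all tested genes, 10824 of 15013 (72.1%). Why this library differed was not tested.

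**Figure D3:**
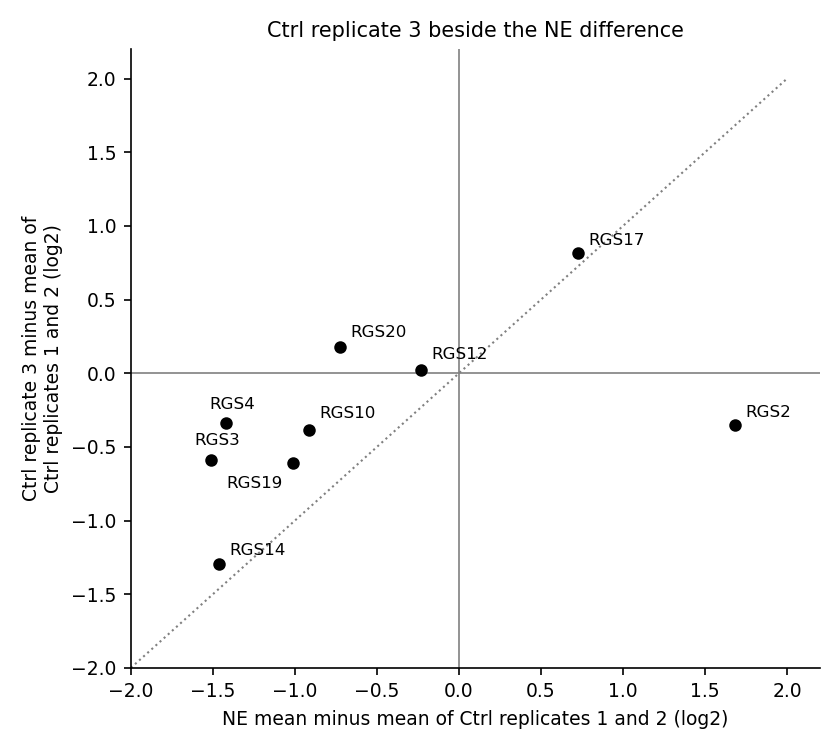
For each of the 9 tested RGS genes, the log2 difference of Ctrl replicate 3 (vertical axis) and of the NE mean (horizontal axis) from the mean of Ctrl replicates 1 and 2. Both axes share this baseline and the dotted line marks equal differences. RGS14 and RGS17 lie near the line and RGS2 lies far from it, at 1.68 on the horizontal axis and -0.35 on the vertical.

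Levels can be compared between genes only per length, so reads were converted to FPKM with the merged exon length of GENCODE v44. RGS10 was the most abundant member on the FPKM scale, at 58.5 ± 7.84 in Ctrl and 37.1 ± 2.30 in NE (SD, n = 3). It was followed in both groups by RGS19 (16.1 ± 3.41 and 10.1 ± 1.72) and RGS20 (9.80 ± 0.927 and 6.24 ± 0.397). Each of these 3 was apart from its neighbours in the order.

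The middle of the FPKM order changed. In Ctrl it ran RGS3, RGS14, RGS17, RGS12, RGS2, with levels of 6.69, 4.27, 3.39, 2.15 and 0.906, and the libraries of RGS3 and RGS14 and of RGS14 and RGS17 overlapped. In NE it ran RGS17, RGS2, RGS3, RGS14, RGS12, with levels of 4.92, 3.55, 2.99, 2.18 and 2.01, where each of the last 4 overlapped its neighbour. RGS2 thus moved from the 8th to the 5th place. RGS4 and RGS16 were last in both groups, at 0.196 and 0.156 in Ctrl and 0.078 and 0.065 in NE, and overlapped. The length used matters for genes with long alternative forms, since with the length of the canonical transcript RGS3 stood 2nd in Ctrl (21.3) and RGS2 stood 6th in NE.

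Summed over the 10 members, the FPKM level was 107, 111 and 88.4 in the Ctrl libraries and 65.6, 67.7 and 74.3 in the NE libraries. The groups did not overlap, with means of 102 ± 12.1 and 69.2 ± 4.56 (SD, n = 3). RGS10 made up 57.2% of the sum in Ctrl and 53.7% in NE, and most of the fall in the sum was in this gene. The share of RGS2 went from 0.884% ± 0.120 to 5.11% ± 0.978, with no overlap. The subfamily shares in Ctrl and NE were close. R4 had 7.74% and 9.61%, RZ 28.9% and 30.6%, and R12 63.4% and 59.7%, and in all 3 subfamilies the libraries of the groups overlapped. The share of R4 depended on the length used, and with the canonical transcript it was 14.8% in Ctrl and 14.7% in NE.

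**Figure D4:**
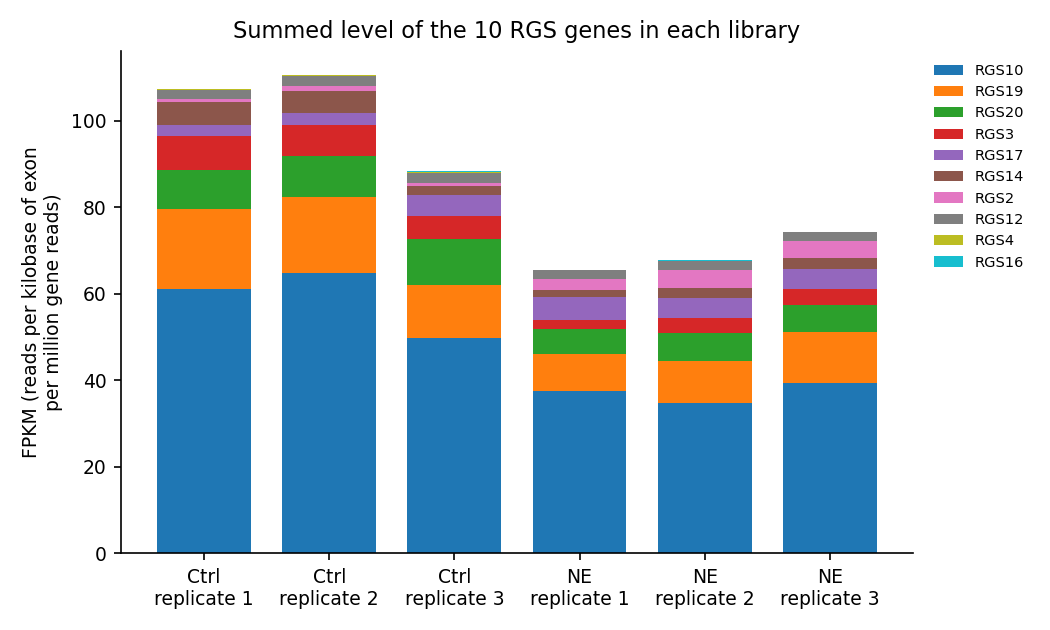
Summed FPKM of the 10 RGS genes in each library, as bars from 0 stacked by gene. The Ctrl bars reach 88.4 to 111 and the NE bars 65.6 to 74.3, with RGS10 as the largest segment in every library and the RGS2 segment visibly wider in the NE bars.

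Other RGS genes of the table gave 1 further call. RGS9 of the R7 subfamily, known best for turning off phototransduction and dopamine signals, had 268, 247 and 264 normalized counts in Ctrl and 186, 151 and 116 in NE. All NE libraries were below all Ctrl libraries. Its log2 fold change was -0.80 (standard error 0.188, limma adjusted p = 0.00655), and -0.79 after GC correction (limma adjusted p = 0.00941). Its membrane anchor RGS9BP went from 62.4 ± 21.6 to 38.1 ± 11.6 (SD, n = 3; log2 fold change -0.67, limma adjusted p = 0.131), and without Ctrl replicate 3 it was lower (-0.98, limma adjusted p = 0.00957). GNB5, the beta subunit that R7 proteins need for stability, had 1002 ± 201 and 859 ± 99.7 (limma adjusted p = 0.294). RGS11 was low, at 17.8 and 14.6, and RGS7 was under the minimum. RGS5 was listed as a pair of gene models that overlap on chromosome 1, so their reads are uncertain. They had log2 fold changes of 0.50 and 0.99 and neither passed (limma adjusted p = 0.189 and 0.147). Without Ctrl replicate 3 the first was higher (0.75, limma adjusted p = 0.0291), and after GC correction its value was -0.19 (limma adjusted p = 0.617).

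Around the RGS genes, lists of G-protein genes were counted, and from each list the genes past the test with a log2 fold change of at least 1 in either direction are named. Genes with smaller changes are named for their role and were chosen after their values were seen. The lists too were chosen with results of these data known, so the counts are descriptions. Over all tested genes, 24.6% were higher and 25.5% lower, with 7.47% upregulated and 6.55% downregulated. After GC correction, 13% of all genes tested that way were higher and 19% lower. The counts of each list below are to be read beside these shares.

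Proteins that carry an RGS domain but belong to other families moved in both directions. Of 9 tested, 4 were higher and 2 lower, with a median of 0.47. SNX13, a sorting nexin, was the 1 upregulated gene (1.02), but after GC correction it missed the test (0.28, limma adjusted p = 0.122). The 2 lower genes were ARHGEF1 (-0.67), an exchange factor that G13 activates, and AXIN1 (-0.57), the scaffold of the Wnt pathway. Both lost the call after GC correction, with AXIN1 then at 0.06, so 3 of the list were higher and 0 lower by limma.

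The Gi/o/z alpha subunits, on which most RGS proteins act, were split, with 3 of 5 higher and 1 lower. GNAO1, the neuronal Go, had 10.5, 14.5 and 0 normalized counts in Ctrl and 41.5, 63.0 and 44.8 in NE. Its log2 fold change of 3.15 (limma adjusted p = 0.0175) was 1.90 without Ctrl replicate 3, and it missed the test without any 1 of the NE libraries (limma adjusted p = 0.0542 to 0.0637). GNAI2, the most read subunit of the list, fell from 8343 ± 501 to 5175 ± 188 normalized counts (SD, n = 3; log2 fold change -0.69, limma adjusted p = 0.000521), a call that was lost after GC correction (-0.16, limma adjusted p = 0.242). GNAI1 was higher and missed the test after GC correction (0.33, limma adjusted p = 0.0876). GNAI3 was higher at 0.38, but after the correction it passed the test as lower (-0.27, limma adjusted p = 0.0333). The correction left 1 of the 5 higher and 1 lower. GNAZ, the preferred partner of RGS17 and RGS20, had 71.4 ± 8.02 and 59.2 ± 4.44 normalized counts (limma adjusted p = 0.315).

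For Gq, on which RGS2 acts, GNAQ was higher (0.89, and 0.38 after GC correction, limma adjusted p = 0.0305), whereas GNA11 was at -0.57 and at 0.05 after the correction. Of the Gs pair, GNAL, the olfactory form, had 45.0, 50.8 and 57.8 normalized counts in Ctrl and 324, 279 and 279 in NE. Its log2 fold change of 2.50 (limma adjusted p = 3.37e-05) was 2.57 after GC correction. GNAS, the general form, was at -0.33 (limma adjusted p = 0.013) and lost the call after the correction. In the G12/13 family 1 of 2 was higher, among the beta subunits 1 of 4 was lower, and among the gamma subunits 1 of 7 was higher and 1 lower. After GC correction 0 were higher in these 3 lists, while 1 beta and 1 gamma subunit were lower.

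Regulators that act on alpha subunits without a receptor held the largest single difference of the G-protein lists. Of 10 tested, 5 were higher and 4 lower, 4 of them upregulated and 2 downregulated. RASD1, a Ras-like activator of Gi signaling, had 2.09, 14.5 and 7.84 normalized counts in Ctrl and 95.9, 111 and 108 in NE (log2 fold change 3.82, limma adjusted p = 0.000567). GPSM2, which holds Gi-GDP at the cell cortex during division, was at 1.65, the calcium-binding protein NUCB2 at 1.31 and CCDC88A, an activator of Gi also called GIV, at 1.15. GPSM1 was at -1.18 and GPSM3 at -1.81. After GC correction 5 were higher and 1 lower, and GPSM3 missed the test (-1.29, limma adjusted p = 0.0556).

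Gq effectors and feedback genes were divided, with 5 of 11 higher and 3 lower. ITPR1 (1.54) and ITPR2 (1.23), which release calcium from stores, and the kinase PRKCE (1.48) were upregulated. PRKCD (-1.37) and PLCB3 (-1.14), a phospholipase that Gq activates, were downregulated. All 5 stayed past the test after GC correction, which left 3 higher and 2 lower.

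In the arginine/N-degron pathway and the other ligases known to turn over RGS proteins, 5 of 8 genes were higher and 2 lower. UBR1 (0.93) and UBR2 (0.95), which recognize the degron of RGS4 and RGS16, and ATE1 (0.92), which arginylates them, were higher and stayed so after GC correction (0.32, 0.49 and 0.43). CUL4B was at 0.93, while FBXO44 (-0.72) and DDB1 (-0.58), its partners in the ligase known for RGS2, were lower, and of these 3 only DDB1 kept its call after the correction. RNA levels do not show protein stability, which was not measured.

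For scale, all 8 of a list of genes that cAMP is known to induce were higher, with a median of 3.13, and the log2 fold change of RGS2 was below that median.

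**Figure D5:**
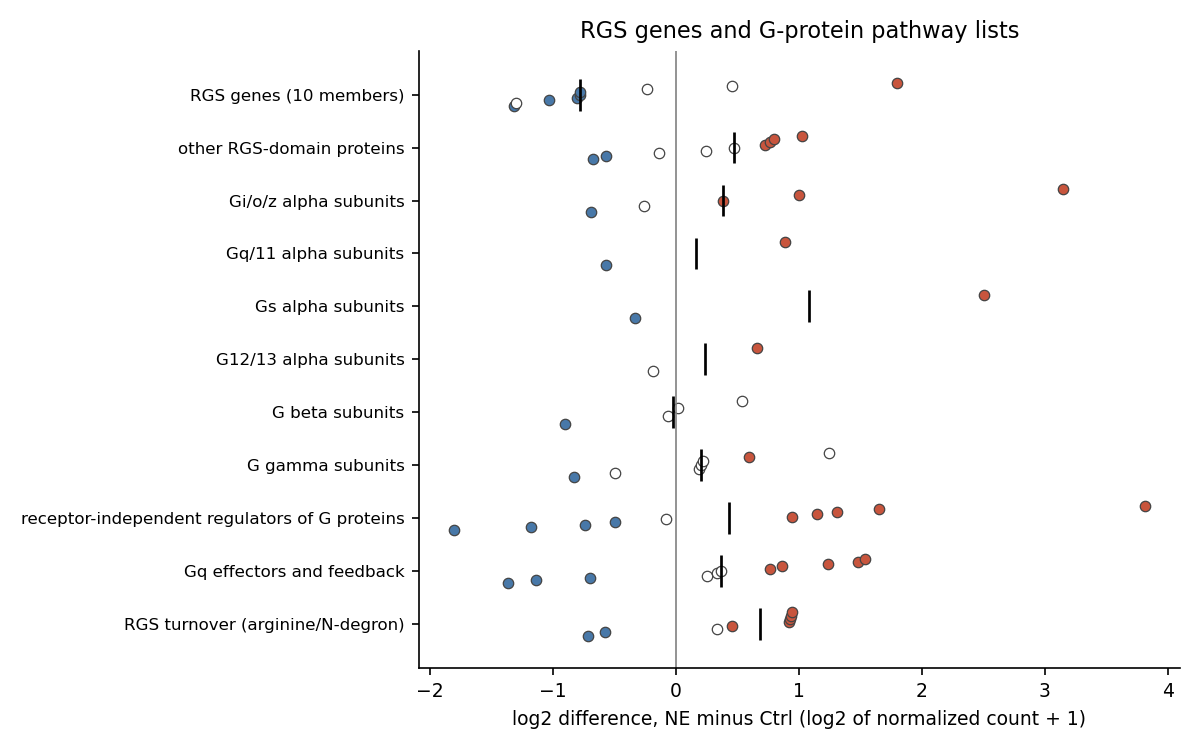
Log2 difference between NE and Ctrl for every tested gene of the RGS members and of the G-protein lists, with red for higher, blue for lower and open circles for genes not past the test, and a vertical tick at each list's median. The median of the RGS members lies at -0.79, while RASD1 lies farthest to the right at 3.82.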

How the data were processed

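RNA of NCI-H1299 cells was sequenced in 3 Ctrl and 3 NE libraries, and libraries were grouped by the treatment label. The submitters' processing notes name HISAT2 2.0.5, featureCounts 1.5.0-p3 and hg38. The authors' methods describe FPKM, but the deposited table held a signal, counts per gene each divided by the size factor of the library (0.955 to 1.09): multiplied back, 100% of values were whole reads (tolerance 0.01). Whether the counting used strand is not given in the sources used here. The group letter and number in a column's name gave its library.

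Log2(value + 1) of the 15013 genes whose mean was 10 or more was fitted with limma 3.58.1 (lmFit, eBayes with trend) in R 4.3.3, with Benjamini-Hochberg adjustment over all genes tested. Exact permutation of 3 against 3 cannot give p under 0.1. edgeR 4.0.16 and DESeq2 1.42.0 on recovered reads, other pseudocounts and minimums, GC and length corrections (in each library, a natural spline of 5 degrees of freedom), a replicate block and each library left out were alternatives. Exon lengths and GC came from GENCODE v44, which matched 25813 of 26025 genes and in which no member shared exon bases with another gene. The authors' annotation is not given in the sources used here. In simulated counts, 98% of 200 genes changed by 1.5 on the log2 scale were recovered among 15013, and 10 unchanged genes passed. The simulation kept each gene's mean and set the same spread for all genes. It held no deviating library and no GC trend, so it does not give error rates for these libraries. Named were all members, every other listed RGS gene and, per list, up to 6 genes past the test with a 2-fold change. The members and lists were chosen with earlier results of these data known. Protein sequences were not used here. An item of the lists that is withheld, and the counts that include it, are not reported here.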

Additional observations from a re-analysis of the deposited data

How the results depend on the processing

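RGS2, RGS3, RGS10 and RGS20 kept their direction and stayed past the test in all 23 alternatives, with log2 fold changes of 1.08 to 1.96 for RGS2, -1.51 to -0.86 for RGS3, -0.91 to -0.62 for RGS10 and -0.83 to -0.44 for RGS20. RGS19 passed in 19 of 23 and RGS14 in 12 of 23. The number of members higher was 2 instead of 1 without Ctrl replicate 3, and also 2 with GC correction without Ctrl replicate 3. With each library left out in turn it was 1 to 2. The number downregulated, 2, became 1 on the FPKM scale, with eBayes without trend and with GC and length correction, where RGS3 remained. It was also 1 with GC correction and with GC correction without Ctrl replicate 3. That member was then RGS4, which was close to the limit of detection (-1.85 and -2.05, limma adjusted p = 0.0441 and 0.0256). With each library left out the number downregulated was 1 to 3, and it was 3 without Ctrl replicate 3 (RGS3, RGS14 and RGS19). The members' median of -0.79 became -0.41 with GC correction, -0.38 with GC and length correction and -0.44 with GC correction without Ctrl replicate 3.

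Some members and other RGS genes changed direction. RGS17 was at -0.32 with GC correction, -0.38 with GC and length correction and -0.21 with GC correction without Ctrl replicate 3, and RGS12 at 0.20, 0.045 and 0.31. RGS12 in the last of these passed the test (limma adjusted p = 0.0269), as did RGS17 with GC and length correction (limma adjusted p = 0.0269). The longer RGS5 gene model was at -0.19, -0.21 and -0.066, and RGS11 at 0.39, 0.37 and 0.29. Without Ctrl replicate 1 RGS11 was at 0.042, within a range of -0.48 to 0.042 over the libraries left out. The cause was not tested. GC correction without Ctrl replicate 3 and the canonical transcript length were chosen after seeing the data.

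Deviations from the group means of same-numbered libraries correlated at -0.163, 0.08 and -0.151. With 3 libraries a group these values are not independent, so they cannot show whether replicate numbers paired the libraries. With the replicate block, 1 member was downregulated and RGS14 missed the test (limma adjusted p = 0.0602). With the replicate block and GC correction together, 3 members were lower, 0 were downregulated by limma, the median was -0.41, RGS17 was at -0.32, RGS12 at 0.20, RGS5 at -0.19 and RGS11 at 0.39. Depth limited RGS4 and RGS16, and 3 libraries a group limit all tests.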
